A study of Mus musculus with 6 samples.

Results

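Genes of fatty acid uptake, mitochondrial beta-oxidation and ketone body metabolism were examined in white adipose tissue of cold-exposed mice that lack the transcription factor YY1 in adipocytes. The set was given by name and holds 40 symbols, ordered here by their place in the pathway. Of these, 36 of the 12393 genes measured have a probe set annotated to that gene alone, and 31 of the 36 passed the filter on dim genes. Dci is the older symbol of Eci1, which was measured, the probe set for Cpt1b is annotated to several genes, and Acsl1 and Acsl3 were not analysed here. The YY1aKO group (3 samples) carried Yy1 alleles flanked by recombination sites and a Cre transgene driven by the promoter of Adiponectin, a hormone gene of adipocytes, so that the other cells of the tissue keep Yy1. The control group (3 samples) carried the same flanked alleles without the transgene. Effects of Cre itself and of losing Yy1 cannot be told apart. Both groups were 8 weeks old, of mixed C57BL6 and 129 background, and were kept at 4 °C for 4 days. The labels do not say whether each sample came from a separate animal, so p-values measure the spread between these samples. They also disagree on the depot, with EWAT and visceral in some fields and subcutaneous in others, and the series title names brown fat where the genotype names Adiponectin. RNA was measured on 1-colour Affymetrix arrays, 1 per sample, and precision is limited by their number.

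Adipocytes and the capillaries that serve them take up fatty acids released from lipoproteins by lipoprotein lipase, with the help of the membrane protein CD36, fatty acid transport proteins and cytosolic fatty acid-binding proteins. Acyl-CoA synthetases activate the fatty acids, the carnitine palmitoyltransferases move them into mitochondria, and cycles of dehydrogenation, hydration, a second dehydrogenation and thiolysis shorten them to acetyl-CoA. In fat exposed to cold this oxidation fuels heat production in brown and brown-like adipocytes. Ketone bodies made by the liver from acetyl-CoA are used as fuel in other tissues through the enzymes OXCT1 and ACAT1.

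The targeted gene separated the groups. Yy1 read 373, 323 and 315 in YY1aKO, against 1785, 1846 and 1596 in control (replicates 1 to 3 in this order here and below, in RMA intensity units on a linear scale), which is -2.37 ± 0.11 as a log2 fold change (± SE, 3 arrays per group, adjusted p = 0.0021). The array annotation does not say which of its probe sets lie in the deleted part. Control 2 stood apart: its Pearson correlations with the remaining arrays were 0.812 to 0.890 over the 7436 genes tested, below those among the YY1aKO arrays (0.988 to 0.990) and that of control 1 with control 3 (0.977). Genes are not independent replicates in these correlations. The summed level of 7 measured epididymal markers was 189 to 206 in YY1aKO, and 182, 96984 and 907 in controls 1 to 3. Lcn8, a lipocalin of the epididymis, read 59.9, 55.3 and 57.0 in YY1aKO, against 50.6, 28166 and 49.2 in control. Comparisons below were therefore made both with all 6 arrays and without control 2, that is, 3 YY1aKO arrays against 2 controls. Where a gene has a single value, it comes from all 6 arrays unless stated. White adipocyte markers were present on all arrays, with Adipoq, the adipocyte hormone adiponectin, at 21588, 21714 and 19768 in YY1aKO, against 24774, 18586 and 24533 in control. Hepatocyte markers summed over 5 genes stayed at 228 to 257 in YY1aKO, against 203 to 248 in control. In tissue RNA, fewer cells of a type and less RNA per cell cannot be told apart.

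With all 6 arrays, Acot13, Fabp5, Acsl5 and Acaa2 rose and Oxct1 fell in YY1aKO. Without control 2, Slc27a4 rose too, and Acadl, Acadsb, Hadh, Echs1 and Acat1 fell beside Oxct1. All 5 genes called with 6 arrays were called in the same direction without control 2. The counts are 4 higher and 1 lower of 31 tested members (16.1%), against 12.9% of all 7436 genes called higher and 7.8% called lower (20.7% in either direction, limma with Benjamini-Hochberg adjustment, threshold 0.05). Without control 2 they are 5 higher and 6 lower (35.5%), against 25.5% higher and 19.6% lower of all genes (45.1%). The members were thus called no more often than genes in general. Leaving out 1 array moved these counts, and those of all genes with them. Without YY1aKO 1 or without control 3 only Acot13 passed (adjusted p = 0.041 and 0.039), where 3.4% and 5.3% of all genes were called. Without YY1aKO 2 or YY1aKO 3 no member did in limma, where 0.444% and 0.323% of all genes were called. At an unadjusted limma p under 0.05, 4 members were higher and 3 lower in each case. How many of all genes reached that level in these fits was not counted. With 6 arrays 8 of the 31 members reached it, against 2772 of all 7436 genes. The median log2 fold change of the 31 members was 0.18 with 6 arrays and -0.03 without control 2, against 0.06 and 0.03 over all genes tested.

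**Figure D1:**
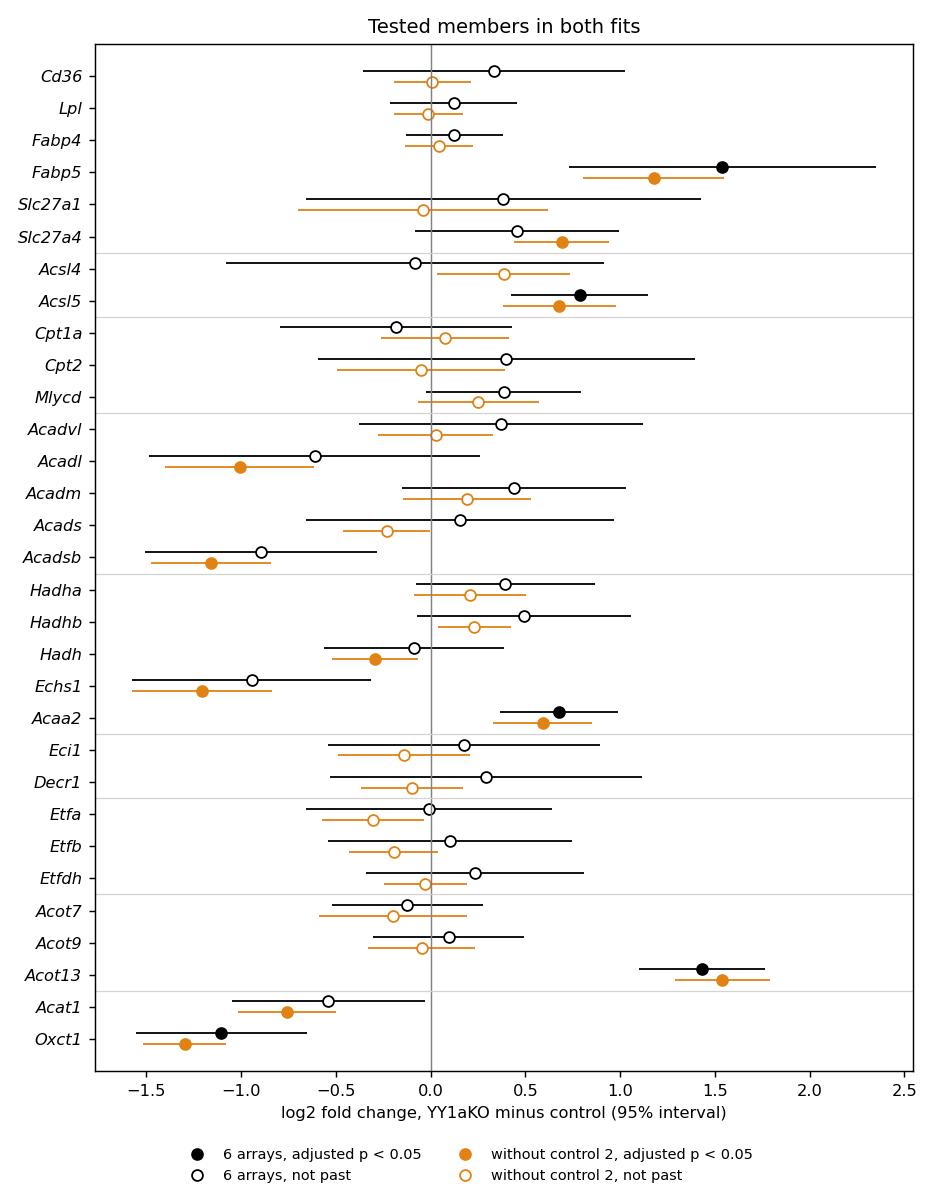
Log2 fold change of each of the 31 tested members (horizontal axis, YY1aKO minus control), with its 95% interval, from all 6 arrays (black) and without control 2 (orange), with filled circles where the adjusted p is under 0.05. Acot13 and Fabp5 lie farthest to the right and Oxct1 farthest to the left with 6 arrays, and the intervals are narrower without control 2 for all 31.

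Promoter sequence is shown for some members called in at least 1 of the fits at different steps, and further below for Hadhb, called in neither. It shows whether these genes carry letters that YY1 binds. The RefSeq promoter table (build GRCm38.p6) held 29 of the 36 measured members, in 34 windows that run from 250 bases before a transcript start to 50 after it. Of these windows, 20 lie at the outer start of the gene, as do all those printed here, and 14 at a start inside it. Of the members called in at least 1 fit, Fabp5, Acot13, Acaa2 and Acat1 had no window and could not be searched. Both strands were searched for ATGGCGGC, the core letters of the YY1 motif, and for AGGTCA, the letters recognised by nuclear receptors such as PPARs, and the 2 motifs do not overlap in the stretches shown. The 250 bases before the start of Oxct1 (chr15:4026178-4026427, plus strand), Acadsb (chr7:131410351-131410600, plus strand) and Echs1 (chr7:140116422-140116671, minus strand) are printed 5′ to 3′ along the gene, with matches in capitals.
Oxct1: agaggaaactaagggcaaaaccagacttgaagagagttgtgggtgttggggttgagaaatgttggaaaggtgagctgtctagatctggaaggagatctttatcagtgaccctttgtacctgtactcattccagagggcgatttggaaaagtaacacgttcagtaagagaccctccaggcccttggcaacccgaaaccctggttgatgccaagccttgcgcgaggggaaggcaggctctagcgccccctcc
Acadsb: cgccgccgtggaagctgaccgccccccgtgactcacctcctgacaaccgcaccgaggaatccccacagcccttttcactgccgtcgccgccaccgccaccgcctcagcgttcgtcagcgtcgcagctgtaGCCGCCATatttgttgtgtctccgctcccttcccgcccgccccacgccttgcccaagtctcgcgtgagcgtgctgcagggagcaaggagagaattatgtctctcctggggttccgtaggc
Echs1: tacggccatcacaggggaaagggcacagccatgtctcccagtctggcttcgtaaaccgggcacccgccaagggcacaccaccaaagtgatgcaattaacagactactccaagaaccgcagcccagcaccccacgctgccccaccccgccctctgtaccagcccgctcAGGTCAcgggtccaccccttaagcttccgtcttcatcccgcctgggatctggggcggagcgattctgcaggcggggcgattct

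Acadsb carried the YY1 letters on the strand opposite to the gene, at -120 to -113 from the start. In Echs1 the capitals above mark AGGTCA at -83 to -78, and the YY1 letters lay past the start, at 28 to 35 (chr7:140116376-140116405, minus strand). The 30 bases around that match are shown with it in capitals.
Echs1 site: gtctctccgccATGGCGGCcctgcgtgctc

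Acadsb and Echs1 were the 2 members of 29 with a match to ATGGCGGC, which 2.24% of all 32851 windows hold. Members are counted as genes, some with several windows, so counts of members and shares of windows differ in unit. AGGTCA was in the windows of 7 members, Acadm, Acadvl, Acsl6, Cd36, Cpt1a, Echs1 and Slc27a2, and in 16.3% of all windows. A direct repeat of AGGTCA with a base between the copies was in 13 windows (0.04%) and in that of no member. The windows of Oxct1, Acsl5, Slc27a4, Acadl and Hadh, all called in at least 1 fit, held none of these letters. That of Acsl5 lies at a start 1508 bases inside the gene, so the sequence at its outer start was not searched. The window of Cd36 lies at a start 53063 bases inside the gene, and those of Acsl6 and Cpt1a also lie at inner starts. A match describes the sequence and does not show binding.

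Among uptake genes, Fabp5 rose, while Fabp4, Lpl and Cd36 did not pass. Fabp5, a fatty acid-binding protein of adipocytes, endothelium and macrophages, read 18718, 19153 and 19248 in YY1aKO, against 10032, 3957 and 7073 in control. The 3 YY1aKO arrays lay close together and above every control, of which control 2 was lowest. The log2 fold change was 1.54 ± 0.33 (SE, n = 3 per group, 2.91-fold, adjusted p = 0.028), and 1.18 ± 0.15 without control 2 (adjusted p = 0.0029). Its second probe set had 2.36 (adjusted p = 0.038 among all probe sets). Fabp4, the main fatty acid-binding protein of adipocytes, read 30322, 29424 and 29990.5 in YY1aKO, against 29128, 24527 and 28862 in control. Its YY1aKO values lay just above the control range, near the top of the scale, where differences can be compressed. The log2 difference of 0.13 ± 0.10 did not pass (adjusted p = 0.42), with a 95% interval of -0.13 to 0.38. The next brightest probe set of Fabp4 had 0.27 with 6 arrays and 0.05 without control 2 (adjusted p = 0.41 and 0.67 among all probe sets). Its dimmer ones spread widely within both groups. They had 0.47 and 0.14 with 6 arrays and -0.37 and -0.63 without control 2, past the threshold in neither fit. Lpl, the lipase that frees fatty acids from lipoproteins, read 24219, 24342 and 23524 in YY1aKO, against 24698, 18362 and 23793 in control, so that control 2 was low and the other 5 arrays lay together. Its difference of 0.12 ± 0.14 did not pass (adjusted p = 0.56), and without control 2 the interval was -0.20 to 0.17. A second probe set of Lpl had 0.05 with 6 arrays and -0.31 without control 2 (adjusted p = 0.94 and 0.067 among all probe sets). Cd36, the fatty acid translocase, had 16825, 15813 and 16339 in YY1aKO, against 16954, 8240.1 and 15531 in control, with control 2 again alone. It differed by 0.33 ± 0.28 with 6 arrays and by 0.01 ± 0.08 without control 2 (95% interval -0.19 to 0.21), past the threshold in neither fit. The probe sets of Cd36 did not behave alike, as the dimmest of its 3 had 1.32 with 6 arrays (adjusted p = 0.11) and 0.81 without control 2 (adjusted p = 0.0032).

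The fatty acid transport proteins differed between members. Slc27a4 (FATP4, an acyl-CoA synthetase that promotes uptake) read 333, 354 and 390.1 in YY1aKO, against 234, 363 and 210.5 in control. Only control 2 overlapped YY1aKO, and the other controls lay below. It did not pass with 6 arrays (0.46 ± 0.22, adjusted p = 0.19) and rose without control 2 (0.69 ± 0.10, adjusted p = 0.0043). Slc27a1 (FATP1, the insulin-responsive transporter of fat and muscle) spread widely in both groups, with 933, 736 and 1184 in YY1aKO, against 1225, 398 and 753 in control. The groups overlapped, and its difference of 0.38 ± 0.43 turned to -0.04 without control 2, past the threshold in neither fit. Slc27a2 and Slc27a3 lay below the filter and are described with the other dim members.

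**Figure D2:**
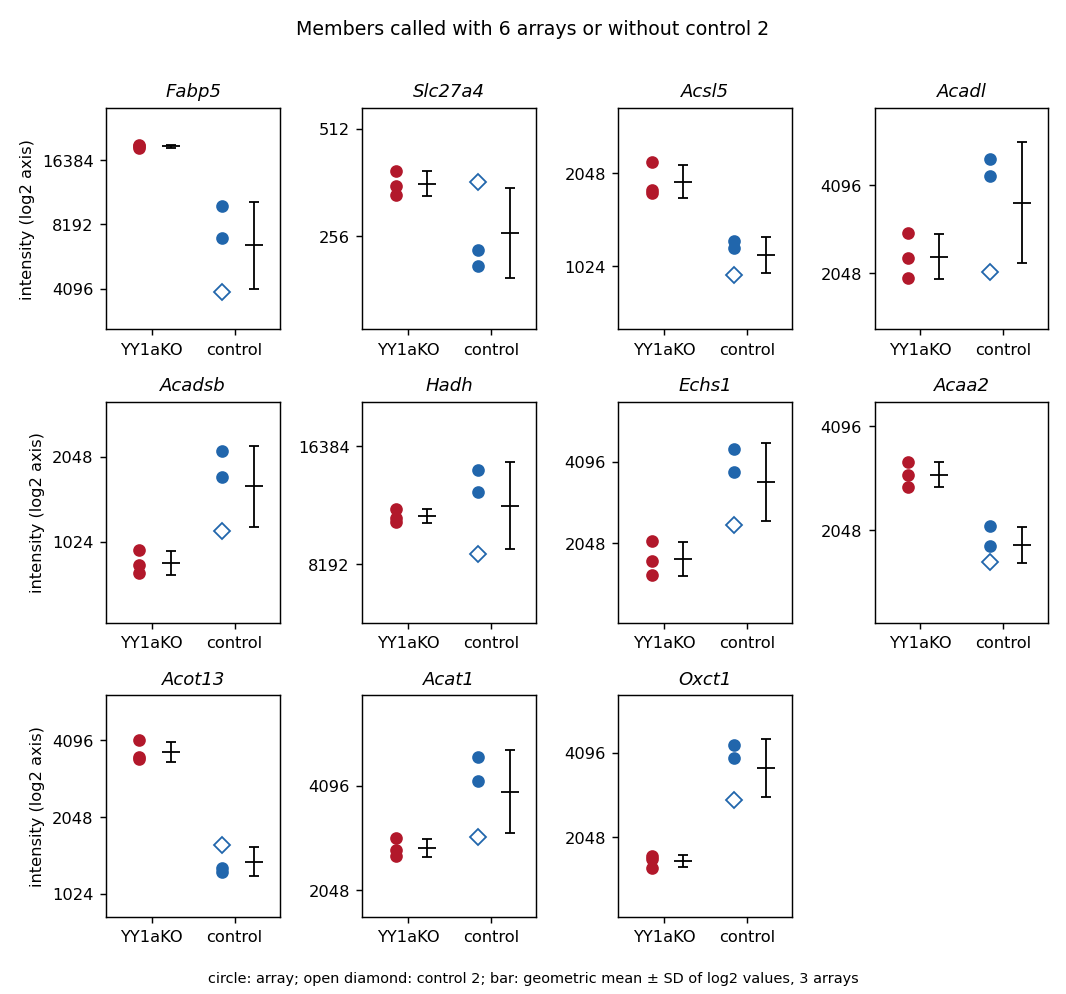
RMA intensity on each array (log2 axis) for the 11 members called with 6 arrays or without control 2, with YY1aKO in red on the left and control in blue on the right of each panel, where control 2 is the open diamond and the bars give the geometric mean with the SD of 3 log2 values. In Fabp5, Acsl5, Acaa2, Acot13 and Oxct1 no control overlaps YY1aKO, while in Acadl, Hadh and Slc27a4 control 2 lies within or beyond the YY1aKO values.

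At activation, Acsl5, a long-chain acyl-CoA synthetase, rose. It read 1806, 2222 and 1772 in YY1aKO, against 1232, 959.9 and 1169.5 in control, and every YY1aKO array lay above every control. The log2 fold change was 0.79 ± 0.15 (1.73-fold, adjusted p = 0.02) with 6 arrays and 0.68 ± 0.12 without control 2 (adjusted p = 0.0076). Acsl4, which prefers arachidonate, read 465, 428 and 495 in YY1aKO, against 409, 934 and 305 in control. Control 2 was the highest array, and without it all YY1aKO values lay above the 2 controls. Its difference changed sign between the fits, at -0.08 ± 0.41 and 0.39 ± 0.14, and did not pass in either (adjusted p = 0.91 and 0.071). The unadjusted limma p of Acsl4 was 0.036 without control 2.

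Entry into mitochondria showed no member past the threshold in limma in either fit, or at an unadjusted p under 0.05. Cpt1a, which makes acylcarnitine at the outer membrane and is the controlled step of oxidation, read 1173, 1052 and 898 in YY1aKO, against 1059, 1684 and 911 in control. The groups overlapped, with control 2 highest, and the difference was -0.18 ± 0.25, or 0.08 ± 0.14 without control 2 (95% interval -0.26 to 0.41). Cpt2, the inner-membrane partner that restores acyl-CoA, read 2734, 2751 and 3190.0 in YY1aKO, against 3642, 1172 and 2447 in control. Controls ran from the lowest to the highest of the 6 arrays, and the difference was 0.40 ± 0.41 with 6 arrays and -0.05 ± 0.18 without control 2. Mlycd, the decarboxylase that removes the CPT1 inhibitor malonyl-CoA, read 451, 416 and 502 in YY1aKO, against 425, 289.6 and 343 in control, and only control 1 reached the YY1aKO range. It differed by 0.38 ± 0.17 and 0.25 ± 0.13 in the same order of fits.

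The acyl-CoA dehydrogenases, which start each cycle and differ in the chains they accept, did not move together. Acadsb, which acts on short branched chains from isoleucine, read 961, 849 and 793 in YY1aKO, against 2138, 1118 and 1743 in control. All YY1aKO values lay below all controls. The difference of -0.90 ± 0.25 narrowly missed the threshold with 6 arrays (adjusted p = 0.054) and was a fall of 2.23-fold without control 2 (-1.16 ± 0.13, adjusted p = 0.0021). Its only probe set is of the _x_at type, whose probes can match related transcripts. Acadl, the long-chain enzyme of mouse mitochondria, read 2306, 1979 and 2809 in YY1aKO, against 5029, 2073 and 4397 in control, so that control 2 lay among the YY1aKO values and the other controls well above. It had -0.61 ± 0.36 with 6 arrays (adjusted p = 0.26) and fell without control 2 (-1.01 ± 0.16, adjusted p = 0.0054). Its second probe set, which read 14.5 to 22.5 over the 6 arrays, had 0.22 with 6 arrays and 0.12 without control 2 (adjusted p = 0.43 and 0.61 among all probe sets).

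Acadvl, the very-long-chain dehydrogenase, read 2396, 2590.4 and 2812 in YY1aKO, against 2828, 1247 and 2292 in control, and the groups overlapped. Its difference was 0.37 ± 0.31, or 0.03 ± 0.12 without control 2. Acadm, the medium-chain enzyme, had 11993, 9203 and 11866 in YY1aKO, against 9941, 5738 and 9228 in control. It was lowest in control 2 and differed by 0.44 ± 0.24, or 0.19 ± 0.14 without that array. Acads, the short-chain enzyme, read 771, 811 and 852 in YY1aKO, against 1014, 427 and 894 in control, so that YY1aKO lay between control 2 and the other controls. Its difference changed sign between the fits, with 0.15 ± 0.33 and -0.23 ± 0.09. None of these 3 passed in limma in either fit (adjusted p = 0.42, 0.24 and 0.77 with 6 arrays, and 0.87, 0.29 and 0.091 without control 2), and Acads alone had an unadjusted p under 0.05, at 0.049 without control 2.

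The later steps of the cycle moved in opposite directions. Acaa2, the thiolase that splits off acetyl-CoA, read 3219.8, 2739.6 and 2969 in YY1aKO, against 2106, 1654 and 1846 in control. The groups did not overlap, and it rose by 0.68 ± 0.13 (adjusted p = 0.02), or 0.59 ± 0.11 without control 2 (adjusted p = 0.008). Echs1, the short-chain enoyl-CoA hydratase, which also serves valine and isoleucine breakdown, read 1561, 1761 and 2084 in YY1aKO, against 4536, 2398 and 3752 in control. Every YY1aKO array lay below every control. With 6 arrays it had -0.94 ± 0.26, at the threshold but not past it (adjusted p = 0.0506), and without control 2 it fell by 1.21 on the log2 scale (adjusted p = 0.0026). Hadh, the short-chain hydroxyacyl-CoA dehydrogenase, read 10773, 10524 and 11348 in YY1aKO, against 14224, 8672 and 12501 in control, with YY1aKO between control 2 and the other controls. Its difference was -0.09 ± 0.19 with 6 arrays and -0.29 ± 0.09 without control 2, where it fell (adjusted p = 0.043). That call was close to the threshold, and adjusted over all probe sets in place of genes the p was 0.071. A second bright probe set of Hadh had -0.20 with 6 arrays (adjusted p = 0.65) and -0.49 without control 2 (adjusted p = 0.017).

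Hadha and Hadhb encode the subunits of the trifunctional protein, which carries out the last 3 reactions on long chains. Their genes stand head to head on chromosome 5 with 272 bases between them. The 250 bases before the start of Hadhb (chr5:30155003-30155252, plus strand) hold most of that shared interval. They contain no exact match to ATGGCGGC or AGGTCA. A stretch atggcggg there differs from ATGGCGGC in the last letter, and inexact matches were not searched for.
Hadhb: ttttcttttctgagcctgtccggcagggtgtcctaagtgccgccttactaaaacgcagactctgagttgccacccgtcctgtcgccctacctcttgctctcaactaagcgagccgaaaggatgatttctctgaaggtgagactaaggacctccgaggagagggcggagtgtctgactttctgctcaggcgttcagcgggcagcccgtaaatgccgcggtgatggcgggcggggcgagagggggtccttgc

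Hadha read 725, 779 and 883 in YY1aKO, against 743, 466 and 635 in control, with overlapping groups. Hadhb read 5469, 5527 and 5771 in YY1aKO, against 4933, 2767 and 4593 in control, and its YY1aKO values lay above the control range. The differences of the pair were alike in size, 0.39 ± 0.19 and 0.49 ± 0.23 with 6 arrays and 0.21 ± 0.12 and 0.23 ± 0.08 without control 2. Neither passed in limma (adjusted p = 0.20 and 0.18, and 0.20 and 0.058 without control 2). The unadjusted p of Hadhb was 0.027 without control 2. A second probe set of Hadhb had 0.57 with 6 arrays and 0.31 without control 2 (adjusted p = 0.17 and 0.054 among all probe sets).

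Enzymes of unsaturated chains and of electron transfer did not pass in either fit. Eci1, which shifts double bonds, read 3335, 3114 and 4016 in YY1aKO, against 4187, 1978 and 3491 in control. Decr1, the dienoyl-CoA reductase, read 4245, 3979 and 4618 in YY1aKO, against 4945, 2042 and 4218 in control. In both, control 2 was lowest and the other 5 arrays overlapped. Their differences were 0.18 ± 0.29 and 0.29 ± 0.34 with 6 arrays, and -0.14 ± 0.14 and -0.10 ± 0.11 without control 2. A second, dimmer probe set of Decr1 had 1.29 with 6 arrays (adjusted p = 0.092 among all probe sets) and 0.85 without control 2 (adjusted p = 0.015), so the 2 probe sets disagree. Etfa and Etfb form the flavoprotein that takes electrons from the dehydrogenases, and Etfdh passes them to ubiquinone. Etfa read 6894, 5774 and 6618 in YY1aKO, against 8374, 4294 and 7462 in control. Etfb read 4409, 3959 and 4346 in YY1aKO, against 5159, 2618 and 4559 in control. Etfdh read 1794, 1904 and 1919.8 in YY1aKO, against 2026, 1106 and 1796 in control. In each of them control 2 was lowest and control 1 highest of the 6 arrays. The 3 genes had -0.01 ± 0.26, 0.10 ± 0.26 and 0.23 ± 0.23 with 6 arrays. Without control 2 all 3 values were negative, at -0.30 ± 0.11, -0.20 ± 0.10 and -0.03 ± 0.09 (adjusted p = 0.067, 0.14 and 0.82), and the unadjusted p of Etfa was 0.033.

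Of the thioesterases, which release free fatty acids from CoA, Acot13 showed the smallest p of all members. It read 3513, 3476 and 4103 in YY1aKO, against 1245, 1591 and 1293 in control, and every YY1aKO array was above every control. The log2 fold change was 1.43 ± 0.14 (2.69-fold, adjusted p = 0.0072), and 1.54 ± 0.10 without control 2 (2.91-fold, adjusted p = 0.00066). ACOT13 is a thioesterase bound to mitochondria in brown fat, where it is known to limit fatty acid oxidation in mice. The related Acot7 and Acot9 did not follow it. Acot7 read 301, 438 and 364 in YY1aKO, against 419, 357 and 414 in control. Acot9 read 1523, 1525 and 1456 in YY1aKO, against 1742, 1154 and 1381 in control. The groups overlapped in both. They differed by -0.12 ± 0.16 and 0.09 ± 0.16 with 6 arrays and by -0.20 ± 0.16 and -0.05 ± 0.12 without control 2, none past the threshold.

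Among the ketone body genes, Oxct1 fell. OXCT1 transfers CoA from succinyl-CoA to acetoacetate and is the step that lets tissues outside the liver burn ketone bodies. Oxct1 read 1716, 1749 and 1592 in YY1aKO, against 4366, 2768 and 3932 in control. Every YY1aKO array lay below every control, and control 2 was the lowest control. The log2 fold change was -1.10 ± 0.18 (2.15-fold lower, adjusted p = 0.015), and -1.30 ± 0.09 without control 2 (2.46-fold lower, adjusted p = 0.00073). Its other 3 probe sets ran from -1.02 to -0.70, and from -1.19 to -0.84 without control 2, where all passed. With 6 arrays 2 of the 4 passed among all probe sets. Acat1, the mitochondrial thiolase that cleaves acetoacetyl-CoA next and also acts in isoleucine breakdown, read 2887, 2569.7 and 2666 in YY1aKO, against 4959, 2904 and 4221 in control. Its YY1aKO values lay below the controls, by a narrow margin for control 2. It had -0.54 ± 0.21 with 6 arrays (adjusted p = 0.12) and fell without control 2 (-0.76 ± 0.10, adjusted p = 0.0035). Its other 2 probe sets gave -0.66 and -0.72 without control 2, both past the threshold. Bdh1, the hydroxybutyrate dehydrogenase that starts ketone use, was dim.

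The 5 members below the filter were fitted with all 12393 genes, and none passed in limma (Slc27a2 and Acot1 had unadjusted p of 0.027 and 0.039). In that fit 6.85% of genes were called higher and 3.99% lower. Slc27a2, a transport protein and very-long-chain acyl-CoA synthetase of liver and kidney, read 33.8, 24.4 and 22.5 in YY1aKO, against 38.2, 324 and 431 in control. It was high in controls 2 and 3 and low in the other 4 arrays, with a difference of -2.72 ± 0.93 (adjusted p = 0.12). Acot1, a cytosolic thioesterase, read 49.0, 42.1 and 54.3 in YY1aKO, against 58.5, 425 and 215 in control and was highest in the same 2 controls (-1.86 ± 0.70, adjusted p = 0.15). Acot1 has near-identical relatives, and its reading may include them. The epididymal peroxidase Gpx5 also read high in these 2 arrays, at 40.5, 37.2 and 41.5 in YY1aKO, against 39.0, 21047 and 639 in control, and the part of epididymal tissue in these values was not tested. Bdh1 read 39.8, 53.3 and 35.2 in YY1aKO, against 31.5, 247 and 54.2 in control, and control 2 lay far above the rest. Acsl6, a synthetase of brain and muscle, read 11.2 to 11.8 in YY1aKO, against 43.4 in control 2, with controls 1 and 3 close to YY1aKO. Slc27a3 read 46.7 to 62.6 over the 6 arrays and differed by 0.04 ± 0.14.

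Within the control group most members shared one order of arrays. Control 2 was the lowest control in 27 of the 31 tested members (87.1%), against 48.6% of all genes tested, and control 1 was the highest in 27 (87.1%, against 42.7%). The median of control 2 minus the mean of the other controls was -0.74 over the members and -0.05 over all genes (log2). The members farthest below were Cpt2 (-1.35), Slc27a1 (-1.27) and Acadl (-1.18), and those above were Acot13 (0.33), Slc27a4 (0.71), Cpt1a (0.78) and Acsl4 (1.40). Of the 31 members, 11 had opposite signs in the fits with and without control 2. White adipocyte markers (6 measured) moved with control 2, summing to 52857, 59205 and 54904 in YY1aKO, against 77996, 41620 and 71779 in control. So did endothelial markers (6 measured, 1889 to 2336 in YY1aKO, against 3076, 1023 and 2583 in control) and macrophage markers (7 measured, 11235 to 13386 in YY1aKO, against 13269.5, 7416 and 13892 in control). Of the white adipocyte markers, only Retn passed, and only without control 2 (-1.67, adjusted p = 0.024). It read 3171, 8225 and 8440 in YY1aKO, against 19778, 10247 and 18733 in control. Without control 2, 5 of the 6 had negative differences and 1, Lipe, a positive difference (0.39). The part of these cell types in the members' values was not tested.

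Among the YY1aKO arrays the members were most often highest in YY1aKO 3 (17 of 31, or 54.8%, against 35.9% of all genes tested) and lowest in YY1aKO 2 (15 of 31, or 48.4%, against 30.4%). Of 7 measured brown adipocyte markers, 4 were highest among the YY1aKO arrays in YY1aKO 3 (Ucp1, Cidea, Elovl3 and Cox8b) and 3 in YY1aKO 2 (Cox7a1, Dio2 and Zic1). Ucp1, Elovl3, Dio2 and Zic1 lay below the filter, with Zic1 at only 8.97, 9.30 and 9.22 in YY1aKO. All 7 brown adipocyte markers together summed to 1463, 1572 and 2826 in YY1aKO, against 1336, 439 and 1082 in control. Ucp1, the uncoupling protein, read 118, 67.6 and 306 in YY1aKO, against 24.7, 23.8 and 25.5 in control. It was called higher in limma with no filter (2.45 ± 0.53, adjusted p = 0.041), while Elovl3, Dio2 and Zic1 did not pass. Cox8b, a muscle and brown fat subunit of cytochrome oxidase, read 490.3, 448 and 1071 in YY1aKO, against 942, 206 and 767 in control, so that its groups overlapped. The part of brown adipocytes in the members' values was not tested. Skeletal muscle markers (8 measured, of which Acta1 alone was bright enough to test) summed to 2188, 1359 and 2191 in YY1aKO, against 423, 466 and 439 in control. Acta1 made up the difference, and the other 7 summed to 243, 252 and 249 in YY1aKO, against 245, 356 and 268 in control. The spread within YY1aKO was small, with a median SD of 0.12 over the members (0.10 over all genes), against 0.46 in control (0.24 over all genes). The control SD includes control 2. Controls 1 and 3 alone differed by a median of 0.19 on the log2 scale over the members (0.13 over all genes). Groups did not overlap for 10 members with 6 arrays (32.3%, 6 higher and 4 lower), against 47.5% of all genes, and for 17 without control 2 (54.8%, 8 higher and 9 lower), against 69.2%.

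**Figure D3:**
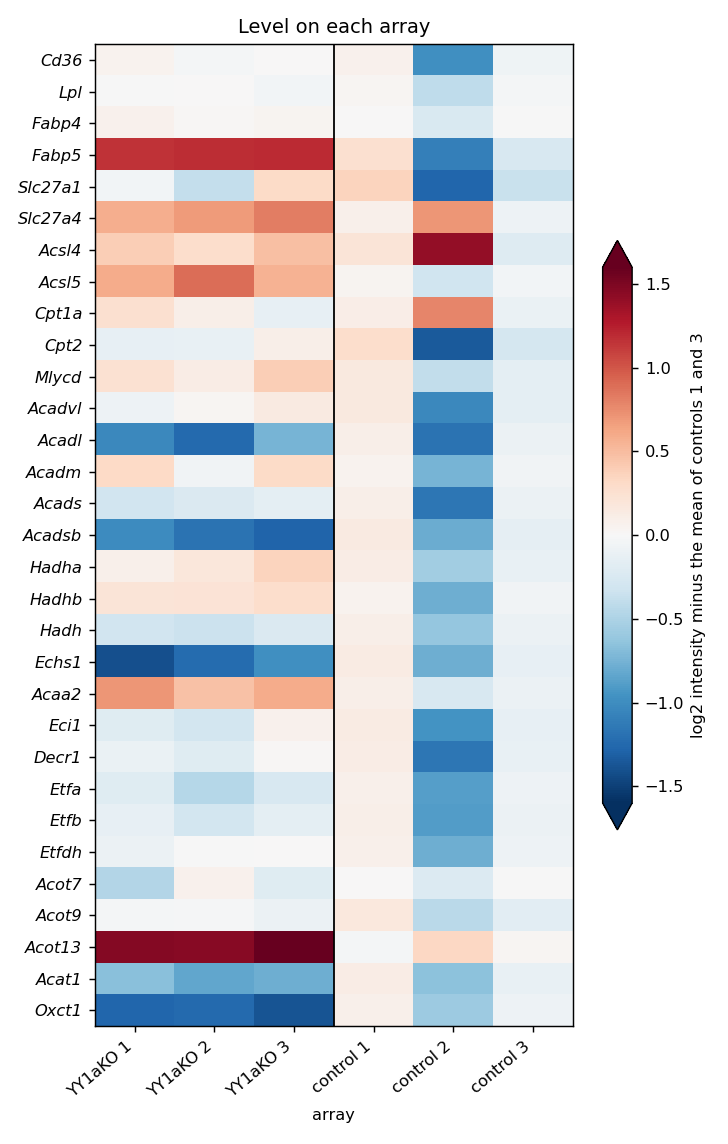
Level of the 31 tested members (rows, in pathway order) on each array (columns), as log2 intensity minus the mean of controls 1 and 3, with red above and blue below. Fabp5 and Acot13 are red on the 3 YY1aKO arrays, Oxct1, Echs1 and Acadsb are blue there, and control 2 is blue in all but 4 rows, Acot13, Slc27a4, Cpt1a and Acsl4.

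Other genes of the pathway came from a list of 49 symbols, of which 42 were measured and 33 tested. With 6 arrays 3 were higher and 5 lower (24.2%), and without control 2, 6 and 13 (57.6%), beside the 20.7% and 45.1% of all genes given above. The median log2 fold change was -0.11, and -0.21 without control 2. Hsd17b10, the mitochondrial hydroxyacyl-CoA dehydrogenase that also serves isoleucine breakdown, had the most negative log2 fold change of those above the filter, with 542, 645 and 697 in YY1aKO, against 2362, 1792 and 2292 in control (-1.77 ± 0.16, adjusted p = 0.0064). Ivd, the isovaleryl-CoA dehydrogenase of leucine breakdown, read 662, 654 and 756 in YY1aKO, against 2091, 953 and 1848 in control (-1.16 ± 0.30, adjusted p = 0.046). The groups did not overlap in either gene. Echdc2, an enoyl-CoA hydratase-like protein, fell too (-1.71 ± 0.32), as did Lmf1, which matures lipoprotein lipase (-0.98 ± 0.20), and Acad9, an acyl-CoA dehydrogenase needed to assemble complex I (-0.47 ± 0.12). Those that rose were Echdc1, an ethylmalonyl-CoA decarboxylase, with 3279, 2926 and 3377 in YY1aKO, against 1884, 1029.6 and 1441 in control (1.18 ± 0.23), the thioesterase Them4 (0.78 ± 0.20) and Etfrf1, a regulator of the electron transfer flavoprotein (0.55 ± 0.14).

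**Figure D4:**
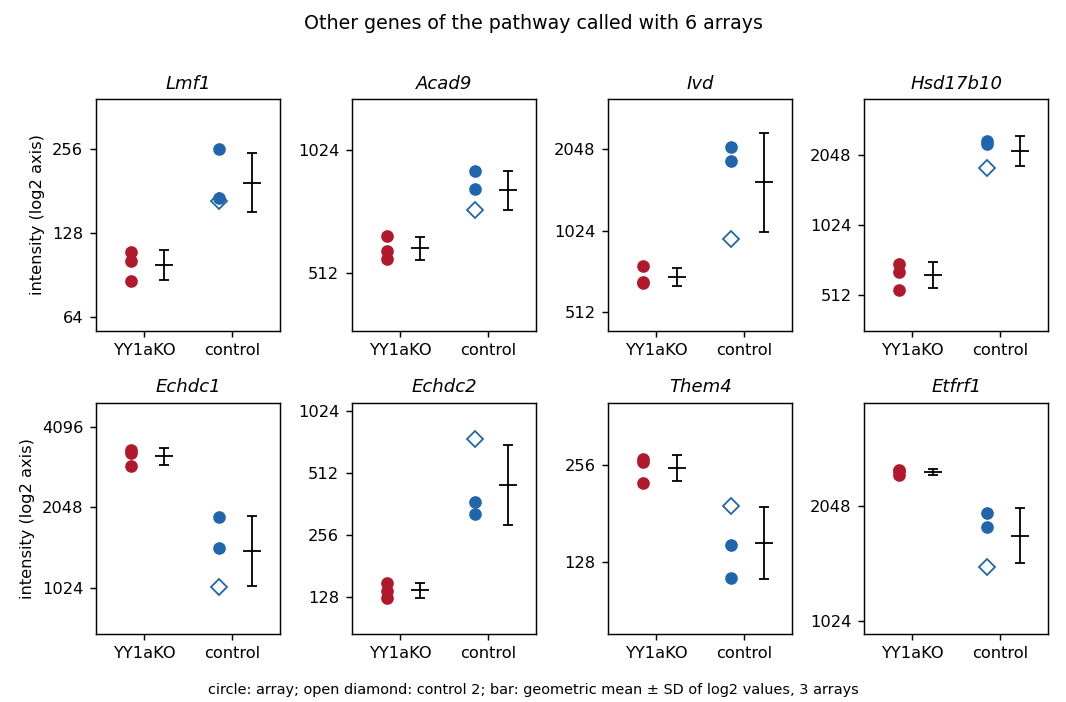
RMA intensity on each array (log2 axis) for the 8 other genes of the pathway called with 6 arrays, with YY1aKO in red on the left and control in blue on the right of each panel, where control 2 is the open diamond and the bars give the geometric mean with the SD of 3 log2 values. No control overlaps the YY1aKO values in any panel, and Hsd17b10 shows the widest gap.

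Without control 2, further genes of that list passed. Those lower were Ech1, which isomerises dienoyl-CoA (-1.17), Acad11 (-1.18), Hibch of valine breakdown (-1.17), Echdc3 (-0.78), Vldlr, a receptor for triglyceride-rich lipoproteins (-0.54), and Angptl4, an inhibitor of lipoprotein lipase (-0.77). Ppargc1b, a coactivator of oxidative genes, had -0.99, and Ppara, a nuclear receptor that activates fatty acid oxidation genes, -0.67. Those higher were Acsf3, a malonyl-CoA synthetase (0.55), Acss2, the cytosolic acetyl-CoA synthetase (1.15, adjusted p = 0.0498), and Got2 (0.46), which read 963, 987 and 816 in YY1aKO, against 589.5, 4457 and 758 in control and had -0.45 with control 2 included. Among dim genes of the list, the coactivator Ppargc1a read 22.3, 15.3 and 35.0 in YY1aKO, against 163, 134 and 242 in control (-2.93 ± 0.36, adjusted p = 0.012 with no filter), and Acss1, the mitochondrial acetyl-CoA synthetase, passed without control 2 (-1.08, adjusted p = 0.0039). Pparg, the adipocyte nuclear receptor, read 2975, 3693 and 3093 in YY1aKO, against 2845, 1159 and 2729 in control, above the controls on every YY1aKO array, and did not pass (0.64 ± 0.36).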

How the data were processed

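White adipose tissue RNA of 6 samples was read on 1-colour Affymetrix arrays. The deposited intensity values, 1 per probe set and array on a linear scale by their range, came from RMA according to the submitters' processing notes, in which its version and settings are missing. Since RMA equalises the arrays' distributions, it takes out any shift that most genes have in common. Array medians were 134 to 140.2. Log2 was taken before any test.

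Of 22690 probe sets, 64 array controls were left out. The platform annotation gave 1 symbol for 20380, several for 691 and none for 1555. For each of 12393 genes the probe set of highest mean was used, and the brightest 60% (7436 genes, mean intensity of at least 114) were tested with limma 3.58.1 in R 4.3.3 (lmFit and eBayes, YY1aKO minus control, two-sided, Benjamini-Hochberg over all genes tested, 0.05). Dim members were fitted with no filter. The fit was checked on simulated data. Members, lists and the setting without control 2 were chosen with earlier results of these data known. The text names every member, and other genes of the list where called in either fit. Ppargc1a, Pparg and single markers named beside a result were chosen after their values were seen. Promoters are from RefSeq (GRCm38.p6). The alternatives were other choices of probe set, filter, normalization, variance model and array weights, a replicate block, and arrays left out.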

Additional observations from a re-analysis of the deposited data

How the results depend on the processing

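With 4 members higher and 1 lower as reported, the number lower was 3 among the brightest 40% of genes, with quantile normalization again and with the same median on every array, where Acadsb and Echs1 joined Oxct1 (23.1%, 20.5% and 20.4% of all genes called), and 5 with array weights (35.3% of all genes). Leaving out 1 array gave 0 to 5 higher and 0 to 6 lower, where 0.323% to 45.1% of all genes were called. Leaving out control 2 with 1 further array gave 5 or 6 higher and 5 or 6 lower, where 31.2% to 36.9% of all genes were called. The members' median of 0.18 ranged from -0.03 to 0.39 with 1 array left out. No member passed with the replicate block (0 higher and 0 lower in limma, where 54 genes, or 0.726%, were called in all). At an unadjusted p under 0.05 it gave 5 higher and 4 lower, a level at which all genes were not counted. Deviations of same-numbered samples from their group means were not positively correlated (r = -0.14, -0.12 and -0.12 across genes). Control 2 enters the mean from which every control deviates, so this check cannot decide whether same-numbered samples were paired. The signs of the 5 called members held in every alternative, and their calls ended with the block and, for 4 or 5 of them, without YY1aKO 1, YY1aKO 2, YY1aKO 3 or control 3. On their own, 1 further probe set of Acaa2 and 2 of Oxct1 missed the threshold. Acsl4 turned to 0.60 (adjusted p = 0.020) without controls 1 and 2. Got2, at -0.45 with 6 arrays, ranged from -1.0 to 0.46 with 1 array left out, turning to 0.46 without control 2, 0.54 without control 2 and YY1aKO 3, and 0.64 without controls 2 and 3. The causes were not tested. Detection calls were not used, so how much of a dim reading is background is not known.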
